A study of Mus musculus with 18 samples.

Results

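The genes described here are the translation initiation and elongation factors of mouse mammary tumours, taken as every gene whose array symbol begins with Eif or Eef followed by a digit, together with Pabpc1. The rule found 62 of the 16887 named genes. They lay on 70 array features, 55 of them with 1 feature, 6 with 2 and 1 with 3, and the features of a gene were averaged. Roles were assigned by symbol alone, so a role can hold genes with other functions. There were 5 genes of start codon selection, 5 of eIF2 and initiator tRNA delivery and 5 of the eIF2B exchange factor. A further 4 were eIF2 kinases, 12 eIF3 subunits, 11 genes of the cap complex and 4 inhibitors of that complex. The rest were 2 of subunit joining, 2 eIF5A genes, 7 elongation factors and 5 enzymes that modify elongation factors. Eif4g1 and Eif2s1, the main cap scaffold and the regulated eIF2 subunit, were not among the features with 1 symbol and have no value here.

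RNA from 18 primary mammary tumours was compared on arrays of 2 channels with a common pool of whole-mouse RNA, and the title of the series asks how FGF receptor and Wnt-1 signalling act together in these tumours. All titles carry the strain FVB and MMTV_Wnt1, in which the viral MMTV promoter drives the Wnt1 ligand in mammary epithelium, so every group shared Wnt1. The groups were Wnt1 alone (n = 6), Wnt1 with iFGFR1 (n = 4), Wnt1 with iFGFR2 (n = 4) and Wnt1 with iR2 (n = 4). They are named below as Wnt1, iFGFR1, iFGFR2 and iR2. The last 3 are together called the receptor groups, a shorthand that no label gives for iR2. The labels do not expand the last 3 names, give no age, sex, drug or induction time, and list iR2 apart from iFGFR2. Nothing in them says that the arrays came from separate animals, so p-values measure only the variation among these samples, and that may be technical. Whole tumours were used, and fewer cells of a type cannot be told apart from less RNA per cell.

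Translation begins when eIF4E binds the cap of an mRNA, the scaffold eIF4G and the helicase eIF4A join it, and eIF3 brings in the small ribosomal subunit with eIF2 and the initiator tRNA. Growth factor signalling through mTORC1 phosphorylates the 4E-BP proteins, encoded by Eif4ebp1, Eif4ebp2 and Eif4ebp3, which otherwise hold eIF4E, and stress kinases phosphorylate eIF2 and so block its recharging by eIF2B. After start codon selection and subunit joining, eEF1A delivers each aminoacyl-tRNA, eEF2 moves the ribosome along, and eIF5A, which carries the modified residue hypusine, helps peptide bond formation at difficult sequences. Many of these mRNAs, Eef1a1, Eef2 and Pabpc1 among them, carry a terminal oligopyrimidine tract through which mTORC1 controls their own translation.

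Values are log2 ratios of tumour to reference RNA, so 0 means equal signal in both channels and 1 means a doubled signal in the tumour, with the log base taken as 2. A difference is the difference of 2 group means on that scale, SE is its standard error, and a gene is called where limma's adjusted p, over all 16887 genes of a comparison, was under 0.05. Luminal keratin genes stood above the whole-mouse reference on nearly all arrays. Krt18 lay between 1.83 and 4.07 and Krt8 between -0.03 and 2.74, whereas the muscle gene Acta1 lay between -5.52 and -3.61. The iR2 arrays resembled each other most, with correlations across genes of 0.933 to 0.962, against 0.736 to 0.828 in iFGFR1 and 0.72 to 0.876 in iFGFR2. Wnt1 replicate 3 stood apart from its group. It correlated at 0.764 to 0.793 with the other Wnt1 arrays, which correlated at 0.839 to 0.916 among themselves. With the iR2 arrays replicate 3 correlated at 0.832 to 0.857. The other Wnt1 arrays correlated with iR2 at 0.798 to 0.899, so that level was not particular to replicate 3. On 38 of the 62 genes it lay outside the range of the other 5 Wnt1 arrays, compared with 12 to 23 genes for each of those. No label names a batch.

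Most translation factor genes stood higher in the receptor groups than in Wnt1 tumours, by small amounts. In iFGFR1 13 of the 62 rose and 0 fell (21.0%), where 15.4% of all genes were called, 8.38% higher and 7.06% lower. The 13 include the Y-linked Eif2s3y, whose ratios were among the lowest on every array and which also counts below among the iFGFR1 genes without overlap. In iFGFR2 3 rose and 1 fell (6.45%), against 3.43% of all genes (1.97% higher and 1.46% lower). In iR2 6 rose and 2 fell (12.9%), against 7.1% (3.91% higher and 3.19% lower). For the mean of the 3 receptor groups 11 rose and 2 fell (21.0%), against 12.5% (6.9% higher and 5.62% lower). The share called was above that of all genes in each comparison, and most calls were rises. In iFGFR1 and iFGFR2 the margin over all genes rests on few genes, and the excess was not tested. Every array of the receptor group lay above every Wnt1 array for 8 of the 62 in iFGFR1, 3 in iFGFR2 and 7 in iR2, where 4.88%, 2.5% and 6.24% of all genes did. Every array lay below all of Wnt1 for 0 of the 62 in each group, where 4.61%, 1.97% and 7.35% of all genes did. The median difference was 0.24 in iFGFR1, 0.22 in iFGFR2 and 0.22 in iR2, where all genes had medians of 0.02, 0.01 and -0.05. A positive difference was found for 50, 43 and 45 of the 62, or 80.6%, 69.4% and 72.6%, against 51.8%, 51.1% and 45.2% of all genes. These comparisons share the 6 Wnt1 arrays and are not independent of each other.

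**Figure D1:**
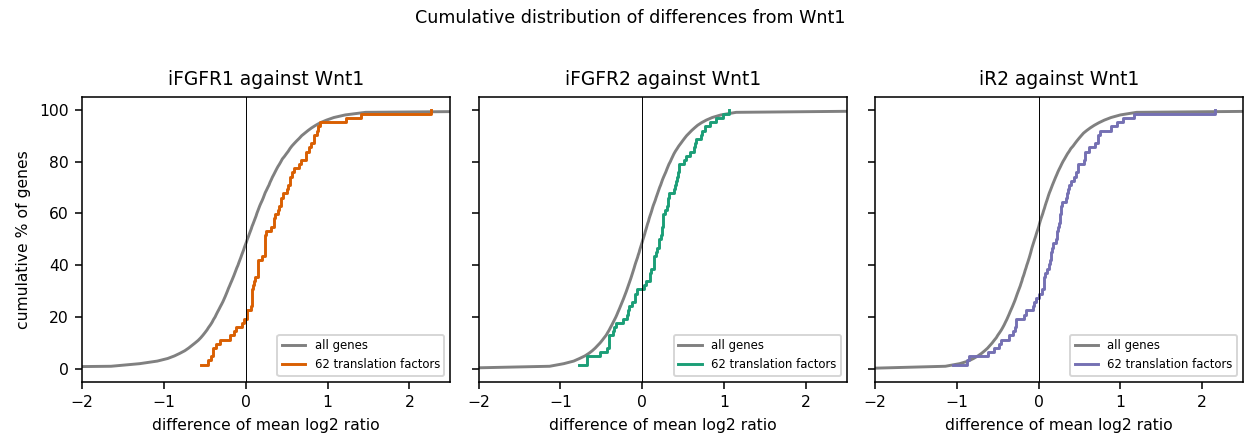
Cumulative percentage of genes (vertical axis) against the difference of mean log2 ratio from Wnt1 (horizontal axis), for all 16887 genes in grey and the 62 translation factors in colour, 1 panel per receptor group. The coloured steps lie right of the grey curve through the middle of each panel, with medians of 0.24, 0.22 and 0.22 against 0.02, 0.01 and -0.05.

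The counts depended on single arrays. Without Wnt1 replicate 3 the calls numbered 10 in iFGFR2, 13 in iR2 and 20 for the 3 groups together. The iFGFR2 count was 8 without iFGFR2 replicate 2, 0 without Wnt1 replicate 2 or iFGFR2 replicate 1 or 4, and 1 or 2 without any other Wnt1, iFGFR2 or iR2 array. The iR2 count was 3 without iR2 replicate 1 or 3, 4 without Wnt1 replicate 6 or iR2 replicate 2, and 5 without Wnt1 replicate 1, 2, 4 or 5 or iR2 replicate 4. For the 3 groups it was 7 without Wnt1 replicate 6 and 8 without Wnt1 replicate 2. The iFGFR1 count ranged from 9 to 18 over the 18 arrays left out in turn. A covariate for the number that each title holds gave 9, 2, 1 and 1 calls. The iR2 arrays carry the 4 highest of these numbers, and no label says what they stand for. In iR2 the covariate ended 7 of the 8 calls while most differences stayed as large. They were 2.21 for Pabpc1 (adjusted p = 0.12), 1.62 for Eef1a1 (adjusted p = 0.146), -1.07 for Eif4e (adjusted p = 0.383) and 0.52 for Eef2 (adjusted p = 0.634), against 2.15, 1.16, -0.88 and 0.73 without it.

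**Figure D2:**
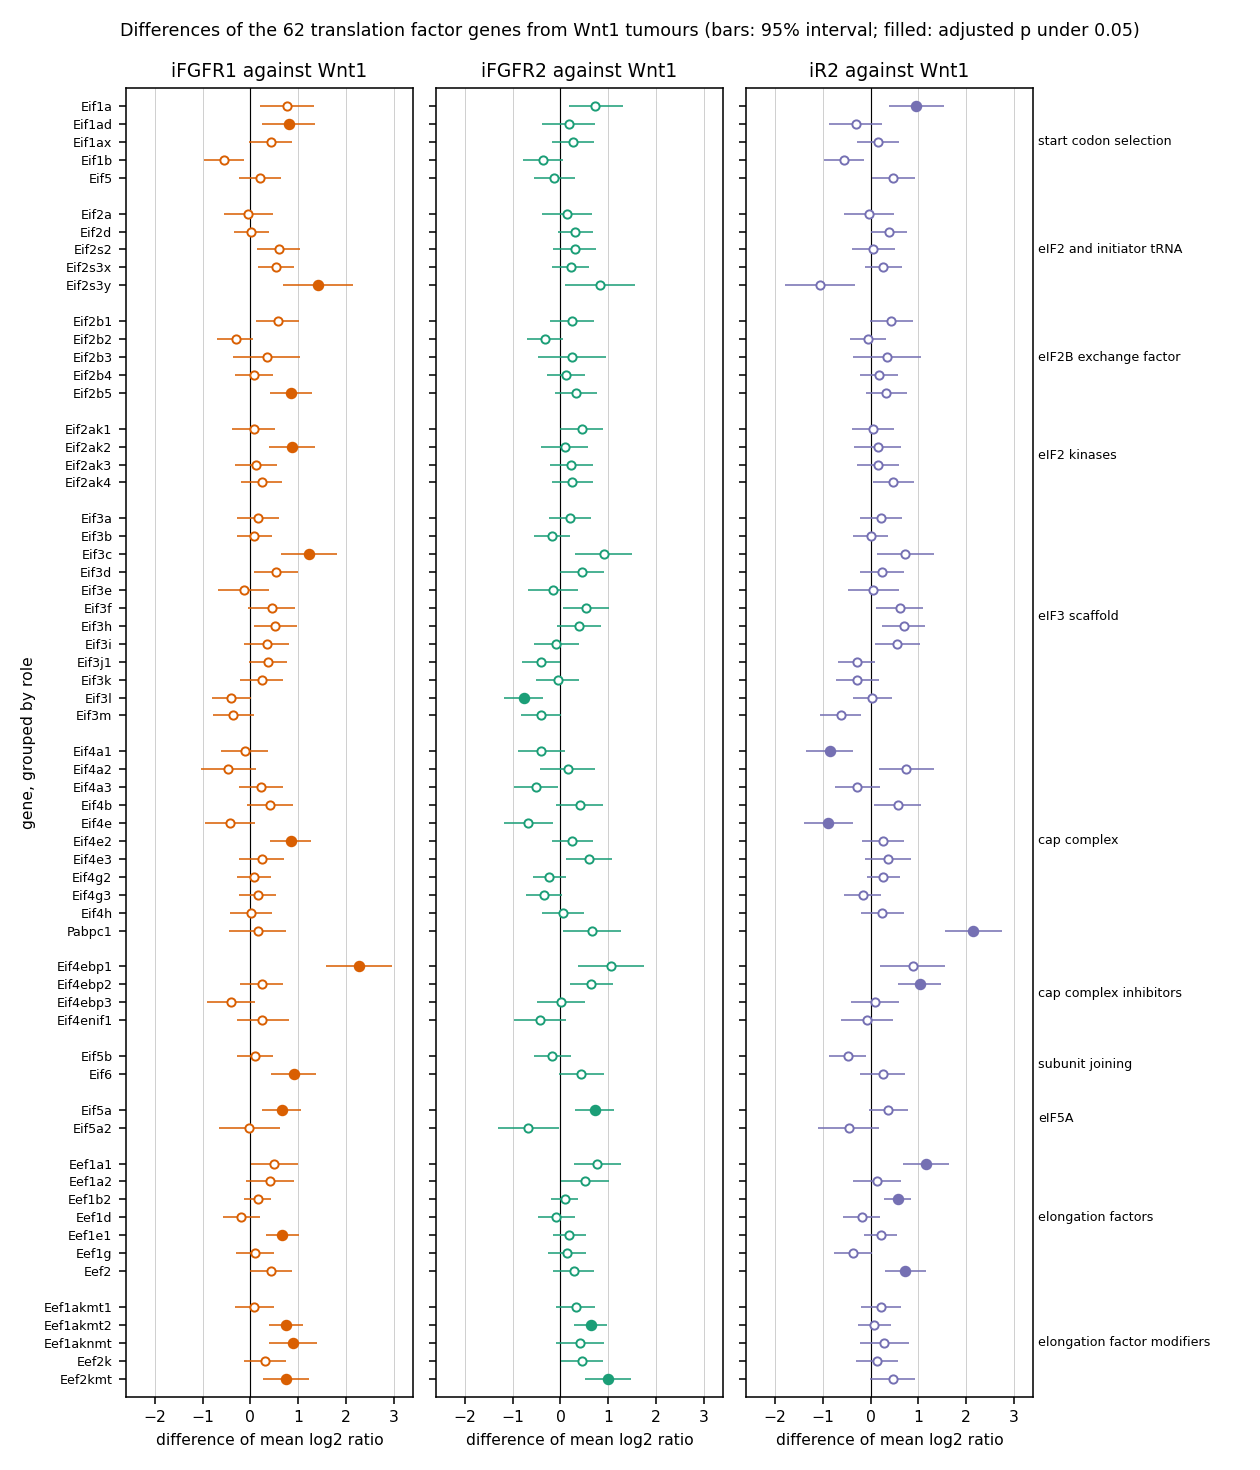
Difference of mean log2 ratio from Wnt1 (horizontal axis) for each of the 62 genes, grouped by role (vertical axis), with 95% intervals from limma and filled points for adjusted p under 0.05. Filled points are 13 in iFGFR1, 4 in iFGFR2 and 8 in iR2, and Eif4ebp1 in iFGFR1 (2.27) and Pabpc1 in iR2 (2.15) lie farthest to the right.

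Among the inhibitors of the cap complex, Eif4ebp1, which encodes the main 4E-BP and is a known target of the stress factor ATF4, rose most. Its 6 Wnt1 arrays read -1.69, -2.49, -0.93, -1.91, -1.93 and -1.46, for a mean of -1.73 ± 0.52 (SD, n = 6). The iFGFR1 arrays read 0.81, -0.27, 0.76 and 0.84 (0.53 ± 0.54, n = 4). The groups did not overlap, and iFGFR1 replicate 2 was the lowest of its 4 arrays. The rise was 2.27 (SE 0.33, 95% interval 1.58 to 2.95, 4.82-fold, adjusted p = 0.000154), and it stayed between 2.12 and 2.54 with each array left out. In iFGFR2 the arrays read -0.53, -1.86, -0.25 and -0.08, of which replicate 2 lay within the Wnt1 range. That difference was 1.06 (SE 0.33, adjusted p = 0.0715). The iR2 arrays, at -0.74, -0.82, -0.64 and -1.23, differed from Wnt1 by 0.88 (adjusted p = 0.107). Eif4ebp1 was lower in iR2 than in iFGFR1, where it fell by 1.39 (SE 0.36, adjusted p = 0.0158), a call that ended without iR2 replicate 4 (adjusted p = 0.0545). The difference between iFGFR2 and iFGFR1, -1.21 (95% interval -1.96 to -0.46), did not pass (adjusted p = 0.0871).

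Eif4ebp2, the second 4E-BP gene, had its highest group mean in iR2 instead. Wnt1 arrays read 0.12, 0.06, 0.71, -0.13, 0.12 and -0.35, and iR2 arrays 0.92, 1.47, 1.25 and 0.84. The groups did not overlap, with Wnt1 replicate 3 nearest to iR2. Eif4ebp2 rose by 1.03 in iR2 (SE 0.22, 2.04-fold, adjusted p = 0.00933). It stood at 0.32 ± 0.28 in iFGFR1 and 0.73 ± 0.34 in iFGFR2 (n = 4 each). Neither passed the test, with differences of 0.24 (adjusted p = 0.498) and 0.64 (adjusted p = 0.0926). Eif4ebp2 was higher in iR2 than in iFGFR1 by 0.80 (SE 0.24, adjusted p = 0.0335), a call lost without iFGFR1 replicate 2, 3 or 4 or without iR2 replicate 2 or 3, the highest adjusted p being 0.116, and with the less variable genes left out (adjusted p = 0.0507). For the 3 receptor groups together Eif4ebp1 rose by 1.40 (SE 0.25, adjusted p = 0.00181) and Eif4ebp2 by 0.64 (SE 0.17, adjusted p = 0.0173), the latter call ending without Wnt1 replicate 6 (adjusted p = 0.0588). Of the other inhibitors, Eif4ebp3 differed from Wnt1 by -0.40 to 0.10 and Eif4enif1, which carries eIF4E into the nucleus, by -0.43 to 0.25, and neither was called.

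**Figure D3:**
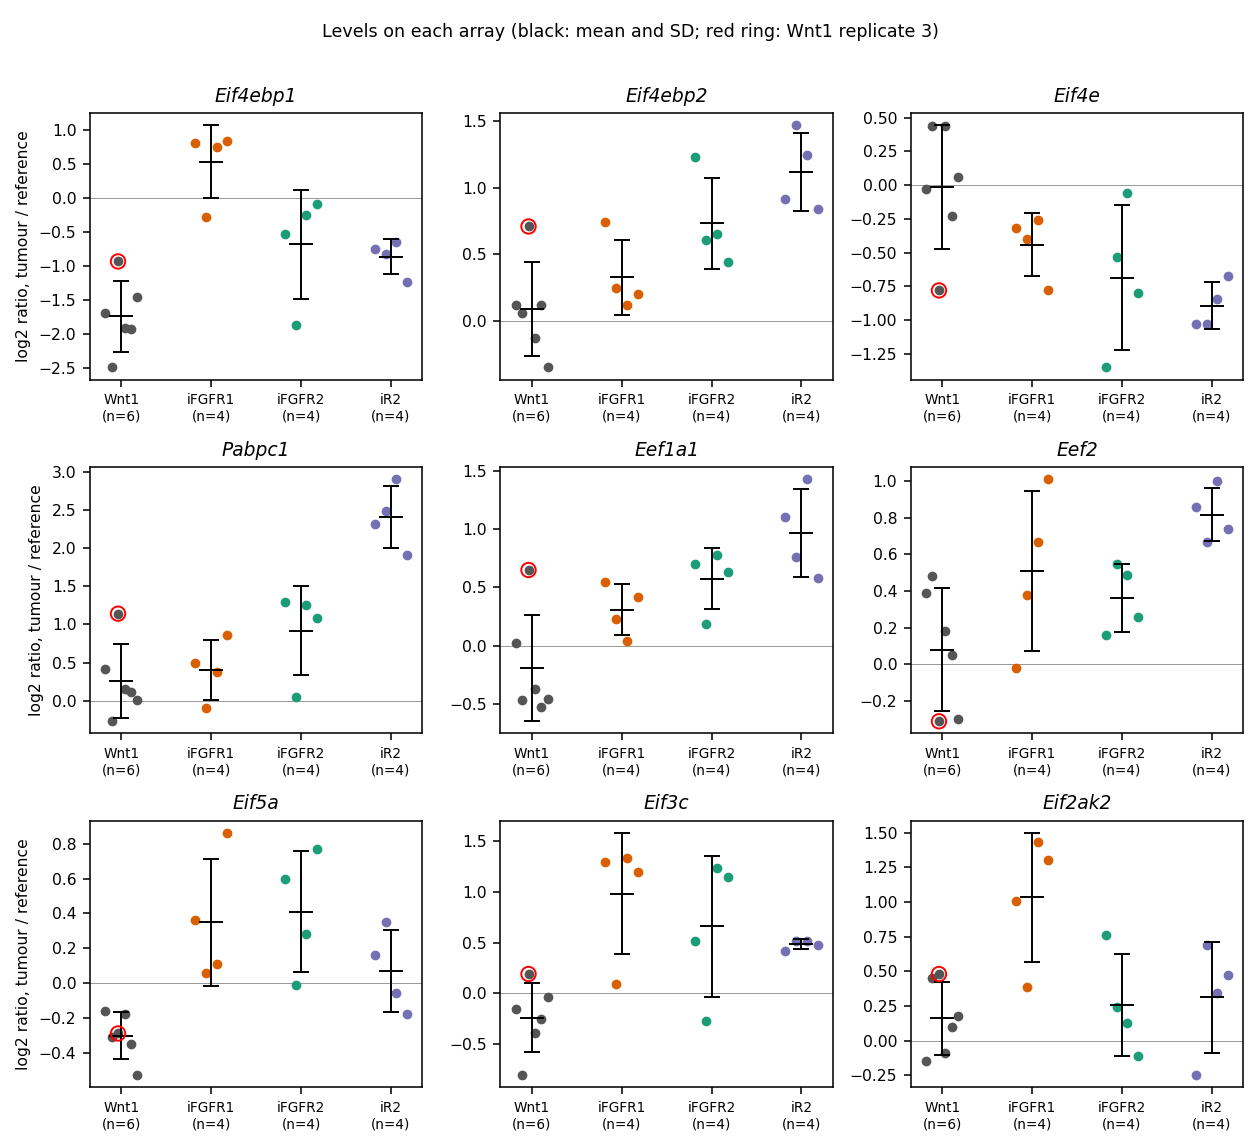
Log2 ratio of tumour to reference (vertical axis, a separate scale in each panel) on every array of the 4 groups (horizontal axis) for 9 translation factor genes. Points are arrays, black bars are the mean and SD, and a red ring marks Wnt1 replicate 3. Eif4ebp1 is highest in iFGFR1, Pabpc1 and Eif4ebp2 are highest in iR2, and Eif4e is lower in iR2 than on 5 of the 6 Wnt1 arrays.

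The cap-binding protein itself and its helicase went the other way in iR2. Promoter sequences of both are shown because both fell in that group and both hold CACGTG, the E-box letters that MYC and related factors read. They come from RefSeq, build GRCm38.p6, are written on the strand of the gene, and carry the motif in capitals. The Eif4e stretch is chr3:138527164-138527249 (+), and its motif begins at -64 from the start, with another match at -228. The Eif4a1 stretch is chr11:69672567-69672652 (-), and its motif begins at -189 from the start.
Eif4e: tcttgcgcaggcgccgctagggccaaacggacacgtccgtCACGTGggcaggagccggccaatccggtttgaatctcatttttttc
Eif4a1: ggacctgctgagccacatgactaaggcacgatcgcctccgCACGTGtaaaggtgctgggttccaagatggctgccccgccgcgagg
The windows searched ran from 250 bases before to 50 bases after each start, and 48 of the 62 genes had at least 1 window. CACGTG, which reads the same on both strands, was in 14 of their 63 windows (22.2%) and in 2349 of all 32851 windows (7.15%). The 12 genes with a match were Eef1aknmt, Eef2, Eef2k, Eif1b, Eif3a, Eif3f, Eif3k, Eif4a1, Eif4e, Eif4h, Eif5a and Eif5a2. They include genes that rose, genes that fell and genes that were not called, and a match is only a run of letters, not a bound site.

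For Eif4e the Wnt1 arrays read -0.03, 0.44, -0.78, 0.44, -0.23 and 0.06, and the iR2 arrays -1.03, -1.03, -0.84 and -0.67. Wnt1 replicate 3 lay within the iR2 range, and the other 5 lay above it. Eif4e fell by 0.88 in iR2 (SE 0.25, adjusted p = 0.037). The differences were -0.42 in iFGFR1 (adjusted p = 0.264) and -0.67 in iFGFR2 (adjusted p = 0.126), and over the 3 groups Eif4e fell by 0.66 (SE 0.19, adjusted p = 0.0292). The iR2 call ended without any 1 iR2 array or any 1 Wnt1 array other than replicate 3 (adjusted p up to 0.116), and the 3-group call ended without Wnt1 replicate 1, 2, 4 or 6 (adjusted p up to 0.0914). Eif4a1, the main helicase, read 0.85, 0.91, 0.04, 0.72, 0.66 and 0.74 in Wnt1 and -0.52, 0.21, -0.47 and -0.01 in iR2, so that again only replicate 3 of Wnt1 overlapped with iR2. It fell by 0.85 in iR2 (SE 0.24, adjusted p = 0.0342). That call ended without any 1 of the other 5 Wnt1 arrays or without iR2 replicate 1 or 3 (adjusted p up to 0.129), and with the more variable of its 2 features in place of their mean (adjusted p = 0.0786).

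Eif4a2, the second helicase gene, read 0.21, -0.11, -0.06 and -0.39 in iR2 and -1.78, -1.30, -1.64 and -0.50 in iFGFR1, with no overlap. It was higher in iR2 than in iFGFR1 by 1.21 (SE 0.30, 2.32-fold, adjusted p = 0.0127). Wnt1 replicate 3, at -0.02, lay within the iR2 range. With a term for the set of iR2 and that array, chosen after the data were seen, the difference was 0.24 (adjusted p = 0.888), and the call also ended with the title number (adjusted p = 0.226). Against Wnt1 its differences were 0.75 in iR2 (adjusted p = 0.103) and -0.46 in iFGFR1 (adjusted p = 0.275). Eif4e2, which encodes a cap-binding relative of eIF4E known for repressing mRNAs, rose in iFGFR1. Its arrays read 0.52, 0.03, 0.43 and 0.43 there and -0.93 to -0.08 (median -0.45) in Wnt1, with no overlap. The rise was 0.84 (SE 0.21, 1.79-fold, adjusted p = 0.00958), while iFGFR2 and iR2 differed from iFGFR1 by -0.59 (adjusted p = 0.19) and -0.58 (adjusted p = 0.0998). Eif4b, a cofactor of the helicase and a target of S6 kinase, differed from Wnt1 by 0.40, 0.40 and 0.57 in iFGFR1, iFGFR2 and iR2 (adjusted p = 0.257, 0.343 and 0.143).

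Pabpc1, the poly(A)-binding protein that joins the 2 ends of an mRNA through eIF4G, showed the widest separation of iR2 from the other groups. The iR2 arrays read 2.32, 2.49, 2.90 and 1.91 (2.41 ± 0.41, n = 4). Wnt1 arrays read 0.41, -0.27, 1.14, 0.16, 0.11 and 0.01 (0.26 ± 0.48, n = 6). In iFGFR1 they read 0.49, -0.10, 0.37 and 0.86, and in iFGFR2 1.29, 0.05, 1.25 and 1.08. Every iR2 array was thus above every array of the other groups. Pabpc1 rose in iR2 by 2.15 against Wnt1 (SE 0.29, 95% interval 1.55 to 2.74, 4.43-fold, adjusted p = 0.000783). It was higher by 2.0 than in iFGFR1 (SE 0.31, adjusted p = 0.000494) and by 1.49 than in iFGFR2 (SE 0.31, adjusted p = 0.0223). The last call ended without iFGFR2 replicate 2 or iR2 replicate 1, 2 or 3 (adjusted p up to 0.0837) and after quantile normalization (adjusted p = 0.0506). In iFGFR1 and iFGFR2 the differences from Wnt1 were 0.15 (adjusted p = 0.778) and 0.66 (adjusted p = 0.191). The rise of 0.98 for the 3 groups together (SE 0.22, adjusted p = 0.00776) is an average over unlike groups.

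The kinases and partners of eIF2 held few calls. Eif2ak2, which encodes the kinase PKR that senses double-stranded RNA and is induced by interferon, read 1.01, 0.39, 1.43 and 1.30 in iFGFR1. Its Wnt1 arrays ran from -0.15 to 0.48 with a median of 0.14, so iFGFR1 replicate 2 overlapped with Wnt1. Eif2ak2 rose by 0.87 (SE 0.23, 1.83-fold, adjusted p = 0.0165), a call that ended without iFGFR1 replicate 3 (adjusted p = 0.0674) or replicate 4. In iFGFR2 and iR2 it stood 0.78 and 0.72 below iFGFR1, which did not pass (adjusted p = 0.126 and 0.076). Its RefSeq promoter, shown because GAAA, any 2 bases and GAAA again resemble the element through which interferon acts, holds these letters from base 19 after the start, in chr17:78882545-78882594 (-).
Eif2ak2: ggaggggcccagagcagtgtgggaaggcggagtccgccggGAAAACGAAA
On either strand these letters were in 3 of the 63 member windows, those of Eif2ak2, Eif2s3x and Eif3a, and in 3.44% of all windows.

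The other eIF2 kinases were not called in any comparison with Wnt1. Eif2ak1, the heme-regulated kinase, differed by 0.07, 0.44 and 0.06 in iFGFR1, iFGFR2 and iR2. Eif2ak3, the kinase PERK of the endoplasmic reticulum, differed by 0.11, 0.23 and 0.16. Eif2ak4, the kinase GCN2 that senses uncharged tRNA, differed by 0.24, 0.25 and 0.48 (lowest adjusted p = 0.158). Of the eIF2B subunits, which reload eIF2 with GTP, Eif2b5, the catalytic one, rose in iFGFR1. It read 1.08, 0.62, 0.86 and 0.24 there and -0.40 to 0.29 in Wnt1, where replicate 3 was the highest and overlapped with iFGFR1. The rise was 0.84 (SE 0.21, 1.80-fold, adjusted p = 0.0102). The rise of 0.50 over the 3 groups (adjusted p = 0.0461) ended without any 1 of 14 of the 18 arrays, the exceptions being Wnt1 replicate 3, iFGFR1 replicates 2 and 4 and iFGFR2 replicate 2, and also under scaling (adjusted p = 0.0546) and the variance filter (adjusted p = 0.0728). Eif2b1 to Eif2b4 differed from Wnt1 by at most 0.57 and were not called.

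Eif2s3y, the Y-linked copy of the eIF2 gamma subunit, had ratios of -2.59 to -6.14 on the 18 arrays, and on each array 0.107% to 3.47% of genes had a lower ratio. It read -3.72, -2.59, -3.87 and -3.21 in iFGFR1, -4.35, -4.32, -6.04, -4.29, -5.04 and -4.51 in Wnt1, and -5.95, -6.14, -5.81 and -5.35 in iR2. The iFGFR1 arrays lay above all Wnt1 arrays, and the iR2 arrays lay below all Wnt1 arrays but replicate 3. The rise in iFGFR1 was 1.41 (SE 0.35, adjusted p = 0.0106), and the difference in iR2 was -1.05 (adjusted p = 0.0731). In iR2 Eif2s3y fell by 2.47 against iFGFR1 (SE 0.38, adjusted p = 0.000482) and by 1.88 against iFGFR2 (SE 0.38, adjusted p = 0.0195). The latter call ended without iFGFR2 replicate 2 or iR2 replicate 1 or 2 (adjusted p up to 0.0812) and after quantile normalization (adjusted p = 0.129). Signal over background was not analysed here, so how far these low ratios are measured above it is unknown. The X-linked copy Eif2s3x differed from Wnt1 by 0.54, 0.21 and 0.27 (adjusted p = 0.0535, 0.545 and 0.402).

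Of the 12 eIF3 subunits 1 rose in iFGFR1, 1 fell in iFGFR2 and 0 were called in iR2, where 15.4%, 3.43% and 7.1% of all genes were called, so these counts are near or below the background. Eif3c, a core subunit, read 1.30, 0.09, 1.34 and 1.20 in iFGFR1 and -0.16, -0.81, 0.19, -0.39, -0.25 and -0.04 in Wnt1. Only iFGFR1 replicate 2 overlapped with Wnt1. Eif3c rose by 1.23 (SE 0.28, 2.34-fold, adjusted p = 0.00678), and its 2 features gave 1.31 and 1.14. In the 3 receptor groups together it rose by 0.95 (SE 0.22, adjusted p = 0.00894), with 10 of 12 receptor arrays above every Wnt1 array. Eif3l fell in iFGFR2, where it read -1.02, 0.05, -0.51 and -0.97, against -0.11 to 0.38 in Wnt1. The fall was 0.77 on the log2 scale (difference -0.77, SE 0.20, adjusted p = 0.0371), and replicate 2 of iFGFR2 lay inside the Wnt1 range. The call ended without Wnt1 replicate 2, 4, 5 or 6, iFGFR2 replicate 1, 3 or 4 or iR2 replicate 1 (adjusted p up to 0.147), and with each array scaled to 1 median absolute deviation (adjusted p = 0.0506).

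Eif3h, a regulatory eIF3 subunit, differed from Wnt1 by 0.52, 0.39 and 0.69 in iFGFR1, iFGFR2 and iR2 (adjusted p = 0.112, 0.32 and 0.0594). All 4 iR2 arrays, between 0.60 and 0.75, lay above every Wnt1 array. Its rise of 0.53 over the 3 groups (adjusted p = 0.0425) ended in 13 of the 18 fits with an array left out, each Wnt1 array but replicate 1 and each iR2 array among them (adjusted p up to 0.1 without Wnt1 replicate 6). Eif3e, the subunit encoded at the Int6 site of mouse mammary tumour virus insertion, differed by -0.14, -0.16 and 0.06 (adjusted p = 0.749, 0.775 and 0.925). Eif3j1, a loosely bound subunit, fell by 0.66 in iR2 against iFGFR1 (SE 0.21, adjusted p = 0.0448), a call that ended in 11 of the 18 fits (adjusted p up to 0.132 without iFGFR1 replicate 1).

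Of the genes of start codon selection, Eif1a, a scanning factor, read 1.25, 0.90, 0.97 and 0.73 in iR2 and -0.92 to 0.86 (median 0.20) in Wnt1, where replicate 5 was the only array to overlap. It rose by 0.96 in iR2 (SE 0.27, adjusted p = 0.037) and by 0.82 in the 3 groups together (SE 0.21, adjusted p = 0.0155). The iR2 call ended without Wnt1 replicate 1, 2 or 6 or any 1 iR2 array (adjusted p up to 0.124), and the pooled call ended without Wnt1 replicate 2 or 6 (adjusted p up to 0.054). Eif1ad, which encodes a related protein, read 1.10, -0.49, 0.14 and -0.19 in iFGFR1 and -1.0 to -0.31 in Wnt1. Its rise of 0.80 (SE 0.27, adjusted p = 0.0492) ended in 13 of the 18 fits and with array weights (adjusted p = 0.0719), and the value without iFGFR1 replicate 1 was 0.48 (adjusted p = 0.214). Eif1ad fell by 1.10 in iR2 against iFGFR1 (SE 0.29, adjusted p = 0.0187), a call that ended without iFGFR1 replicate 1 or iR2 replicate 2 or 3 (adjusted p up to 0.0649). Eif1b, named after its values were seen because it was 1 of only 2 genes that fell in the pooled comparison, fell by 0.49 (SE 0.15, adjusted p = 0.0432), and the call ended in 12 of the 18 fits (adjusted p up to 0.128 without Wnt1 replicate 2), after quantile normalization (adjusted p = 0.056) and under scaling (adjusted p = 0.0559).

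Eif5a was one of the few genes called in both iFGFR1 and iFGFR2, 2 comparisons that share the Wnt1 arrays. Wnt1 arrays lay close together, at -0.16, -0.31, -0.29, -0.18, -0.35 and -0.53, for an SD of 0.13. The iFGFR1 arrays read 0.36, 0.06, 0.11 and 0.86, the iFGFR2 arrays 0.60, -0.01, 0.28 and 0.77, and all 8 lay above every Wnt1 array. The rise was 0.65 in iFGFR1 (SE 0.19, adjusted p = 0.0267) and 0.72 in iFGFR2 (SE 0.19, adjusted p = 0.0447), and 0.58 for the 3 groups (SE 0.15, adjusted p = 0.0155) with 11 of 12 arrays above all of Wnt1. The iFGFR1 call ended without Wnt1 replicate 6 or iFGFR1 replicate 1 or 4 (adjusted p up to 0.103) and with array weights (adjusted p = 0.0617). The iFGFR2 call ended without any 1 Wnt1 array but replicate 3, any 1 iR2 array or iFGFR2 replicate 1, 3 or 4 (adjusted p up to 0.148), and under scaling (adjusted p = 0.0505). In iR2 the difference was 0.37. Its paralogue Eif5a2 differed by -0.02, -0.68 and -0.46 (adjusted p = 0.974, 0.204 and 0.396). Eif6, which keeps the ribosomal subunits apart and acts in the making of the large one, read 1.12, 0.38, 1.14 and 0.87 in iFGFR1 and -0.74 to 0.45 (median -0.04) in Wnt1. Its lowest iFGFR1 array overlapped with Wnt1. It rose by 0.91 (SE 0.23, 1.88-fold, adjusted p = 0.0108).

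Among the 7 genes placed by symbol with the elongation factors, 3 rose in iR2, 1 in iFGFR1 and 0 in iFGFR2. Of all genes 3.91%, 8.38% and 1.97% rose. The 1 in iFGFR1 was Eef1e1, a partner of the multi-synthetase complex described below. With 7 genes, a count of 0 or 1 is near that background. The promoter of Eef2, the translocation factor, is shown because Eef2 was the called elongation factor with a CACGTG match. The stretch is chr10:81176548-81176630 (+), and the match begins at -43 from the start.
Eef2: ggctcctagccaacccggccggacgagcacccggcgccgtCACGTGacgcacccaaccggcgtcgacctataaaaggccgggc
Eef2 read 0.86, 0.67, 1.0 and 0.74 in iR2 and 0.39, 0.48, -0.31, 0.18, 0.05 and -0.30 in Wnt1, with no overlap. It rose by 0.73 (SE 0.21, 1.66-fold, adjusted p = 0.0369), a call that ended without any 1 iR2 array or Wnt1 replicate 4, 5 or 6 (adjusted p up to 0.129). Eef1a1, the main carrier of aminoacyl-tRNA, read 1.11, 0.76, 1.43 and 0.58 in iR2 and 0.02, -0.47, 0.65, -0.37, -0.53 and -0.46 in Wnt1, where replicate 3 alone overlapped. It rose by 1.16 (SE 0.23, 2.24-fold, adjusted p = 0.00733). Its differences in iFGFR1 and iFGFR2 were 0.50 (adjusted p = 0.153) and 0.77 (adjusted p = 0.067), and in the 3 groups together it rose by 0.81 (SE 0.18, adjusted p = 0.00712).

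Eef1b2, a subunit of the exchange factor for eEF1A, read 1.09, 1.33, 1.23 and 1.11 in iR2 and 0.46 to 0.77 in Wnt1, with no overlap. It rose by 0.57 (SE 0.14, 1.48-fold, adjusted p = 0.0189), a call that ended without iR2 replicate 1, 2 or 3 (adjusted p up to 0.0797). Eef1e1, a small partner of the multi-synthetase complex, rose in iFGFR1 by 0.67 (SE 0.17, 1.59-fold, adjusted p = 0.0103), its arrays reading 0.77, 0.75, 0.97 and 0.50 against -0.30 to 0.28 in Wnt1. The tissue-restricted paralogue Eef1a2 differed by 0.41, 0.51 and 0.14 from Wnt1 (adjusted p = 0.263, 0.228 and 0.8). Where the array probes lie, and whether they also read close paralogues or processed pseudogenes of Eef1a1, Pabpc1 and Eif4a1, was not analysed here.

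Of the 5 enzymes that modify elongation factors 3 rose in iFGFR1, 2 in iFGFR2 and 0 in iR2, where 8.38%, 1.97% and 3.91% of all genes rose. Eef2k and Eef1akmt1 were not called. Eef2kmt, a lysine methyltransferase of eEF2, read 1.24, 1.02, 1.71 and 1.21 in iFGFR1, 2.21, 0.85, 1.46 and 1.66 in iFGFR2, and at most 0.77 in Wnt1. It rose by 0.74 (SE 0.23, adjusted p = 0.0339) and 0.99 (SE 0.23, 1.99-fold, adjusted p = 0.0252). The first call ended without Wnt1 replicate 2, 5 or 6 or iFGFR1 replicate 1, 3 or 4 (adjusted p up to 0.12) and under scaling (adjusted p = 0.0548), and the second without Wnt1 replicate 2 or iFGFR2 replicate 1 or 4 (adjusted p up to 0.113). Eef1akmt2, a lysine methyltransferase of eEF1A, read 0.67, 0.63, 0.81 and 0.94 in iFGFR1, 0.76, 0.49, 0.74 and 0.61 in iFGFR2 and -0.30 to 0.46 in Wnt1, with no overlap. It rose by 0.74 (SE 0.17, adjusted p = 0.00574) and 0.63 (SE 0.17, adjusted p = 0.0437). Its iFGFR2 call ended in 11 of the 18 fits (adjusted p up to 0.133 without iFGFR2 replicate 1), after quantile normalization (adjusted p = 0.0552), under scaling (adjusted p = 0.0589) and with array weights (adjusted p = 0.0629). In iR2, at 0.02 to 0.17, Eef1akmt2 fell by 0.66 against iFGFR1 (SE 0.18, adjusted p = 0.0243), which ended without iFGFR1 replicate 3 or 4 or any 1 iR2 array (adjusted p up to 0.0679) and after quantile normalization (adjusted p = 0.0527).

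Eef1aknmt, which methylates both the N terminus and a lysine of eEF1A, read 1.36, 0.72, 0.90 and 2.16 in iFGFR1 and -0.23 to 0.73 in Wnt1. It rose by 0.88 (SE 0.24, 1.84-fold, adjusted p = 0.0187). Without iFGFR1 replicate 4 the difference was 0.59 (adjusted p = 0.0787). Eef2k, the calcium-dependent kinase that inactivates eEF2, differed from Wnt1 by 0.31, 0.45 and 0.13 (adjusted p = 0.344, 0.219 and 0.772). In the pooled comparison Eef2kmt rose by 0.73 (SE 0.18, adjusted p = 0.0118) with 11 of 12 arrays above all Wnt1 arrays, and Eef1akmt2 by 0.48 (SE 0.13, adjusted p = 0.0191), the latter call ending without Wnt1 replicate 2 (adjusted p = 0.0567) or 5.

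The receptor groups were also compared with each other. Between iFGFR2 and iFGFR1 limma called 0 of the 62, where 2.13% of all genes were called (1.21% higher and 0.924% lower). Before adjustment 10 of the 62 had p under 0.05, Eif4ebp1 and Eif2ak2 among them. The median difference was -0.10, against -0.01 for all genes, and 2 genes had every iFGFR2 array below every iFGFR1 array, where 2.81% of all genes did, while 0 had every iFGFR2 array above, where 3.36% did. The count was 2 without iFGFR1 replicate 2 or iFGFR2 replicate 2 and 1 without Wnt1 replicate 3 or iFGFR1 replicate 4. Between iR2 and iFGFR1 8 were called (12.9%), 3 higher and 5 lower, close to the 11.7% of all genes (4.81% higher and 6.84% lower). Groups did not overlap for 6 higher and 13 lower genes of the 62, where 9.21% and 13.0% of all genes did so. The count was 4 without iR2 replicate 2 or 3 and 5 without iFGFR1 replicate 3 or iR2 replicate 4. The higher genes were Pabpc1, Eif4a2 and Eif4ebp2, and the lower ones Eif2s3y, Eif4ebp1, Eif1ad, Eef1akmt2 and Eif3j1. With each array scaled to 1 median absolute deviation the split was 5 higher and 5 lower. Between iR2 and iFGFR2 Pabpc1 and Eif2s3y were called (3.23%), against 1.34% of all genes (0.272% higher and 1.07% lower). Groups did not overlap for 5 higher and 3 lower genes, where 4.35% and 8.68% of all genes did so. The count was 0 without iR2 replicate 1 or 2 and 1 without iR2 replicate 3 or iFGFR2 replicate 2. Over the 4 groups limma's F test called 20 of 62 (32.3%), against 19.6% of all genes. That count was 10 to 13 without Wnt1 replicate 2, 5 or 6, iFGFR1 replicate 1 or 3 or any 1 iR2 array.

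The iR2 results carry a limit that the labels do not resolve. The 8 genes called in iR2 against Wnt1 were set against Wnt1 replicate 3 alone and against the other 5 Wnt1 arrays. Pabpc1 in iR2 lay 1.27 above replicate 3 and 2.32 above the mean of the others. Eef1a1 lay 0.32 and 1.33 above them, Eif4ebp2 0.41 and 1.16, and Eif1a 0.73 and 1.01. Eif4e differed by -0.11 and -1.03, and Eif4a1 by -0.24 and -0.98. For these 6 genes the distance from iR2 to replicate 3 was the smaller. Replicate 3 itself was nearer to the iR2 mean than to the mean of the other Wnt1 arrays for 4 of the 8, namely Eef1a1, Eif4ebp2, Eif4e and Eif4a1. Eef2 and Eef1b2 went the other way, 1.13 and 0.65 above replicate 3 and 0.66 and 0.55 above the others. By the same measure replicate 3 was nearer to iR2 for 46 of all 62. That count was not made over all genes or for another Wnt1 array, so it is not read as a trait of the translation factors.

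**Figure D4:**
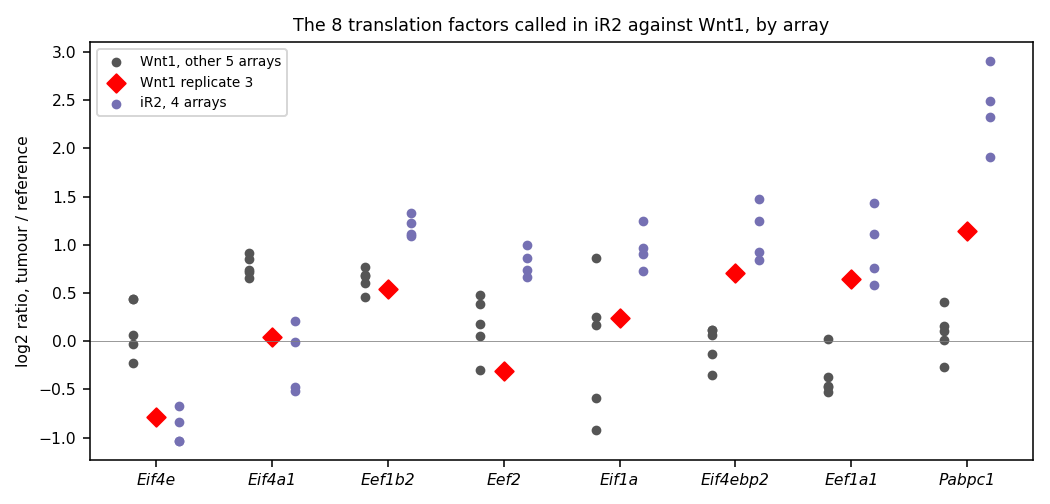
Log2 ratio of tumour to reference (vertical axis) for the 8 genes called in iR2 against Wnt1 (horizontal axis), with the other 5 Wnt1 arrays in grey, Wnt1 replicate 3 as a red diamond and the 4 iR2 arrays in purple. The diamond lies among the iR2 points for Eif4e, Eif4a1 and Eef1a1, between the groups for Eif4ebp2 and Pabpc1, and at or below the lowest grey point for Eef2.

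When a term for the set formed by the 4 iR2 arrays and Wnt1 replicate 3 was added to the fit, an alternative chosen after the data were seen, all 8 iR2 calls ended, since the contrast then rested on replicate 3 alone. The differences became 1.27 for Pabpc1 (adjusted p = 0.216), 0.32 for Eef1a1 (adjusted p = 0.96), 0.41 for Eif4ebp2 (adjusted p = 0.876), -0.11 for Eif4e (adjusted p = 0.999) and 1.13 for Eef2 (adjusted p = 0.131). The calls against iFGFR1 ended too, apart from Eif4ebp1, which fell by 2.35 (adjusted p = 0.034), and both calls against iFGFR2 ended. In iFGFR1 against Wnt1 the same term ended the call of Eif1ad (adjusted p = 0.0755) and left the difference of Eif4ebp1 at 2.43 (adjusted p = 4.31e-05). For the 3 receptor groups together it ended the calls of Eif1b (adjusted p = 0.126), Eif2b5 (adjusted p = 0.129), Eif4e (adjusted p = 0.0899) and Eif4ebp2 (adjusted p = 0.0525). The interquartile range over all features, a measure of the spread of values on an array, was 0.769 to 0.844 on the iR2 arrays and 0.79 on Wnt1 replicate 3. On every other array it was at least 0.874. Whether replicate 3 and iR2 share a technical set was not tested, and no label names one.

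Other lists of the translation machinery are given beside the shares of all genes called, 15.4% in iFGFR1, 3.43% in iFGFR2 and 7.1% in iR2. Among 27 targets of the integrated stress response, the programme that follows eIF2 phosphorylation, 13 rose and 0 fell in iFGFR1, with a median difference of 0.68 against 0.02 for all genes. Phgdh, which starts serine synthesis, rose by 1.49 (SE 0.19), Chac1, which degrades glutathione, by 2.05 (SE 0.29) and Aldh18a1 of proline synthesis by 1.23 (SE 0.22). In iFGFR2 0 of the 27 rose or fell (median -0.06), and in iR2 2 rose and 3 fell (median -0.04). The mean of the list was 0.40 to 0.77 on the iFGFR1 arrays, -0.09 to 0.15 in Wnt1, -0.11 to 0.04 in iFGFR2 and -0.12 to 0.00 in iR2, so iFGFR1 stood apart from all. Both Eif4ebp1 and this list were highest in iFGFR1, and iFGFR1 replicate 2 was the lowest of its group in both. That is not particular to this pair. Replicate 2 also had the lowest iFGFR1 mean of the translation factors (0.062), the aminoacyl-tRNA synthetases (0.188) and the hypusine and polyamine genes (0.139). For mitochondrial translation factors and for ribosome biogenesis and MYC, replicate 4 was the lowest. A link between Eif4ebp1 and the list was not tested. Of 21 cytosolic aminoacyl-tRNA synthetases, 6 rose and 0 fell in iFGFR1 (median 0.51), led by Rars (1.34, SE 0.24), Kars (1.30, SE 0.28) and Cars (0.96, SE 0.24). In iFGFR2 0 were called (median 0.04), and in iR2 Farsb and Kars rose by 1.46 (SE 0.35) and 1.09 (SE 0.28).

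A further list held genes of mTORC1, MNK and S6 kinase signalling, of which mTORC1 phosphorylates the 4E-BP proteins. Of 28 measured, 6 rose and 1 fell in iFGFR1 (median 0.16), 1 fell in iFGFR2 (median 0.30), and 4 rose and 0 fell in iR2 (median 0.10). All genes had medians of 0.02, 0.01 and -0.05 and shares called of 15.4%, 3.43% and 7.1%, so the single call in iFGFR2 is at the background. Akt2, a kinase upstream of mTORC1, rose by 1.07 in iFGFR1 (SE 0.23), and Deptor, an inhibitor within mTORC1, by 1.05 (SE 0.28). Pdpk1, which activates AKT and S6 kinases, rose by 0.76 in iFGFR1 (SE 0.20) and 1.24 in iR2 (SE 0.20), and Sesn1, a leucine sensor that restrains mTORC1, by 1.09 in iR2 (SE 0.19). The members that rose thus include both activators and inhibitors of the pathway, and protein phosphorylation was not measured. Of 25 release, recycling and accessory factors, 3 rose and 2 fell in iFGFR1 (median 0.19), with Abcf2 up by 1.10 (SE 0.25), Tpt1 up by 0.75 (SE 0.19) and Mcts1 at -0.73 (SE 0.16). In iFGFR2 1 of these fell and in iR2 1 rose, with medians of 0.15 and 0.01.

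Of 10 hypusine and polyamine genes, which supply the modification of eIF5A, Srm rose by 0.67 in iFGFR1 (SE 0.20) and Odc1 fell by 1.08 in iR2 (SE 0.24), and 0 were called in iFGFR2. Of 10 mitochondrial translation factors 3 rose in iFGFR1, namely Mtrf1 (0.88, SE 0.27), Gfm2 (0.69, SE 0.22) and Gfm1 (0.73, SE 0.23), 1 rose in iFGFR2 and 0 were called in iR2. Of 34 genes of ribosome biogenesis and MYC, 4 rose and 1 fell in iFGFR1, 1 rose in iFGFR2, and 3 rose and 1 fell in iR2, with medians of 0.09, 0.03 and 0.03. The counts in iFGFR1 and iFGFR2 are near those of all genes, 15.4% and 3.43%, and 7.1% of all genes were called in iR2. Dkc1, a pseudouridine synthase of ribosomal RNA, rose by 1.03 in iFGFR1 (SE 0.26) and 1.17 in iR2 (SE 0.26).

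**Figure D5:**
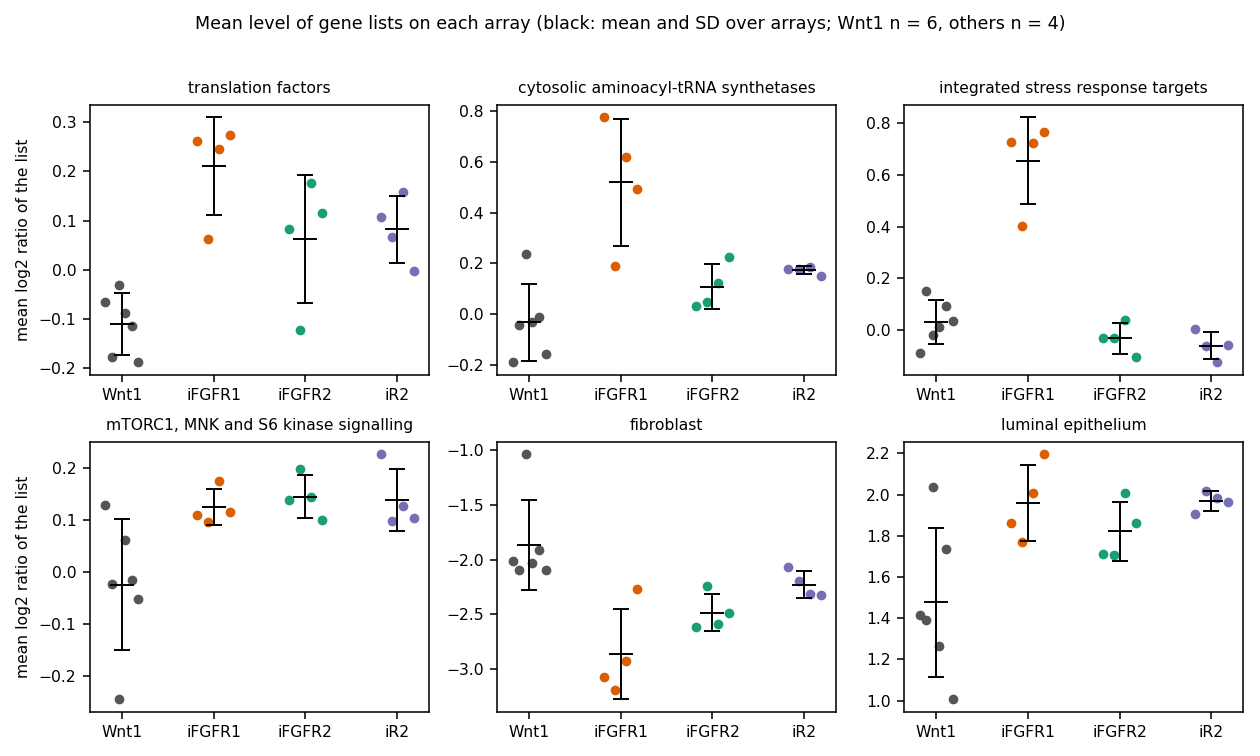
Mean log2 ratio over the genes of each list (vertical axis, a separate scale in each panel) on every array of the 4 groups (horizontal axis), with the mean and SD over arrays in black. The integrated stress response list is higher on the iFGFR1 arrays (0.40 to 0.77) than on any other array, and the fibroblast list is highest on a Wnt1 array (-1.03).

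Some lists of cell type markers also differed between the groups. Their counts stand against shares of all genes called of 15.4% in iFGFR1 (8.38% higher and 7.06% lower), 3.43% in iFGFR2 and 7.1% in iR2. In lists of this size a count of 1 in iFGFR2 or iR2 is near that background. The mean of 19 fibroblast genes lay between -3.19 and -2.27 in iFGFR1, -2.62 and -2.25 in iFGFR2, -2.33 and -2.07 in iR2 and -2.10 and -1.03 in Wnt1. Of the 19, 11 fell in iFGFR1, 2 in iFGFR2 and 2 in iR2. Of 15 basal and myoepithelial genes 6 fell and 1 rose in iFGFR1, with list means of -0.66 to -0.46 there and -0.16 to 0.38 in Wnt1. Of 17 luminal genes 6 rose and 1 fell in iFGFR1, 2 rose in iFGFR2 and 3 rose in iR2. The luminal list means were 1.77 to 2.20 in iFGFR1, 1.71 to 2.01 in iFGFR2, 1.91 to 2.02 in iR2 and 1.01 to 2.04 in Wnt1. Of 20 proliferation genes 5 rose in iFGFR1, 1 in iFGFR2 and 1 in iR2, with list means of 0.44 to 0.92 in iFGFR1 and 0.02 to 0.50 in Wnt1. The iFGFR2 and iR2 luminal means lay within the Wnt1 range. Squamous genes (12) had means of -2.26 to -1.28 in iFGFR1 and -2.63 to -2.32 in Wnt1, and 3 of them rose. Neutrophil genes (9) had means of -2.17 to -1.81 in iFGFR1, -3.19 to -2.72 in iR2 and -2.69 to -2.21 in Wnt1, with 3 higher and 1 lower in iFGFR1 and 1 lower in iR2. In iR2, T and NK cell genes (13, of which 4 fell) lay at -0.96 to -0.59 against -0.54 to -0.19 in Wnt1, and nerve genes (9, of which 1 fell) at -3.01 to -2.64 against -2.53 to -2.14. The endothelial, adipocyte, skeletal muscle, macrophage, B cell and erythroid means overlapped with Wnt1 in every receptor group. Wnt1 replicate 3 had the highest mean of its group in every list of this paragraph except skeletal muscle, B cell, erythroid and nerve. The part of these markers in the translation factor results was not tested.

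Where a gene had several features they did not always give the same direction. The 3 features of Eif5b, the subunit-joining GTPase, correlated with each other at -0.02 to 0.32 over the 18 arrays and differed from Wnt1 in iFGFR1 by -0.40, -0.29 and 0.97. The 2 features of Eef1d correlated at -0.235, those of Eif4g3 at -0.229 and those of Eif4g2 at 0.199. Those of Eif3c correlated at 0.793 and those of Eif4a1 at 0.593, with differences in iR2 of -0.91 and -0.80 for the latter. The averages of Eif5b, Eef1d, Eif4g2 and Eif4g3, none of which was called, therefore combine unlike readings.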

How the data were processed

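The authors deposited 1 table of log2 ratios (read as base 2, since the base is not stated) for 22575 features on 18 arrays of 2 channels. Per the labels, tumour RNA carried Cy5 and the whole-mouse reference Cy3, from which the direction, tumour over reference, was taken. Tumour RNA was extracted by column kit and reference RNA by TRIZOL, per the labels' protocols. For scanner, background correction and normalization, the sources used here give nothing. The table had 0 empty cells and column medians of -0.023 to 0.009. Of the features, 18658 carried 1 platform symbol, 30 carried several and 3887 carried none. Features of 1 symbol were averaged, giving 16887 genes.

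Differences between groups came from a single limma fit to all 18 arrays (version 3.58.1, R 4.3.3, eBayes, no covariates), with Benjamini-Hochberg adjustment over all genes of a comparison and a threshold of 0.05. The method was tested on simulated data. The number of arrays limits the precision. Members and gene lists were chosen with earlier results of these data known. A fixed set of members was named whatever the values (20 of them measured), with up to 20 further members past the threshold against Wnt1 or in the F test, every member called between receptor groups, and up to 3 called genes per list. Alternatives covered quantile normalization, scaling, centring, array weights, variance priors, feature choice, the arrays fitted, the title number, a variance filter, the threshold and each array left out. Promoters are RefSeq windows of 300 bases of build GRCm38.p6.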

Additional observations from a re-analysis of the deposited data

Results flagged for a closer look

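Among 132 tests of the highest and lowest array (33 named genes in 4 groups), 7 gene values, on 4 arrays, stood far from the rest of their group by Dixon's criterion. Chance alone meets this criterion in about 1 group in 20, so 7 of 132 is near the number that chance alone would give. The values are listed without a claim that these arrays are unusual. Replicate 2 of iFGFR2 supplied 3 of them. Pabpc1 read 0.046 there and 1.08 to 1.29 on the other arrays, Eef1aknmt read 0.44 against 0.92 to 0.96, and Eef1b2 read 0.87 against 0.65 to 0.67. Replicate 2 of iFGFR1 supplied 2, with Eif4ebp1 at -0.27 against 0.76 to 0.84 and Eif3c at 0.09 against 1.20 to 1.34. In Wnt1, Eif4a1 read 0.044 on replicate 3 against 0.66 to 0.91, and Eef2kmt read -0.004 on replicate 2 against 0.51 to 0.77.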

How the results depend on the processing

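No paired analysis was possible because the labels give no replicate numbers shared between groups. Counts of called genes are given in the order iFGFR1, iFGFR2, iR2 and the 3 groups against Wnt1, then iFGFR2 and iR2 against iFGFR1, iR2 against iFGFR2, and the F test. As reported they were 13, 4, 8, 13, 0, 8, 2 and 20. With 1 array left out they ranged from 9 to 18, 0 to 10, 3 to 13, 7 to 20, 0 to 2, 4 to 10, 0 to 2 and 10 to 25. Array weights, which weighted the iR2 arrays most, gave 12, 6, 28, 25, 0, 13, 5 and 34. The title number as a covariate gave 9, 2, 1, 1, 0, 2, 0 and 9. Leaving out the less variable genes gave 9, 1, 6, 8, 0, 5, 2 and 10. That filter also took members out of the test, so these lower counts are not all lost calls. Of the 68 calls of named genes 46 were still tested, and 5 of these ended. A threshold of 0.01 gave 4, 0, 3, 4, 0, 2, 0 and 5. Quantile normalization gave 13, 3, 9, 14, 0, 7, 0 and 16, and scaling each array 12, 1, 12, 12, 0, 10, 4 and 20. For iFGFR2 against Wnt1 the single call under scaling was a rise, and for iR2 against iFGFR2 scaling gave 3 rises and 1 fall. With only the arrays compared, iFGFR2 had 0 calls and iR2 14. The term for iR2 with Wnt1 replicate 3, added after the data were seen, gave 18, 10, 1, 11, 1, 2, 0 and 17. Of 68 calls of named genes, 45 ended with the title number, 28 with that term, 10 each with quantile normalization and scaling, 4 with array weights and 0 with centring, robust or trended priors. In none of these settings did a called difference change sign. Causes were not tested. Signal over background, which limits the dimmest features, was not analysed here.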
